A study of Caenorhabditis elegans with 165 samples.

Results

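The dosage compensation complex of Caenorhabditis elegans was examined through the 10 genes that encode it: sdc-1 (F52E10.1), sdc-2 (C35C5.1), sdc-3 (C25D7.3), dpy-27 (R13G10.1), mix-1 (M106.1), dpy-26 (C25G4.5), dpy-28 (Y39A1B.3), capg-1 (F29D11.2), dpy-21 (Y59A8B.1) and dpy-30 (ZK863.6). The genes were chosen by name, as the known subunits, from 20389 gene identifiers in the count files, and all 10 were found and passed the filter on low counts. RNA was sequenced from whole worms in 12 libraries, 4 from each of 3 strains. The fusion strain 15eh1 (title X;V) carries X joined to chromosome V, the fusion strain YPT41 (title X;II) carries X joined to chromosome II, and N2 is the wild type without a fusion. Titles give the larval stages L1 to L3 for all 3 strains, whereas the design text gives L3. No agent, RNAi or other allele is named for any of these libraries. Nothing in the labels says that replicates came from separate cultures, so p-values measure the spread between libraries, which may be technical. The other 153 samples of the series, ChIP and input libraries, were not analysed here.

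In hermaphrodites, which carry a pair of X chromosomes, the complex binds both and lowers their transcription to balance the single X of males. SDC-2, made in hermaphrodites, starts the loading onto X together with SDC-3 and DPY-30. The loaded machine is a condensin, a ring-shaped protein complex that folds chromosomes. It differs from the mitotic and meiotic condensin I by a single subunit, DPY-27, which takes the place of SMC-4. MIX-1, DPY-26, DPY-28 and CAPG-1 serve in both machines, and MIX-1 also in condensin II.

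Replicate 1 of every strain stood apart from replicates 2 to 4. The 6 vitellogenins, yolk proteins of the adult hermaphrodite intestine, took 6.81% to 12.6% of the gene counts in the 3 replicate 1 libraries and at most 0.0449% in the other 9 libraries, although all carry the larval title. Levels are given as CPM, counts scaled to a library total of 1000000 with the TMM factors of edgeR. The summed level of these genes was 67454 to 167587 CPM in replicate 1 and 2.71 to 427 CPM in replicates 2 to 4, with 0 to 2 of the 6 genes at or under 3 counts in a library of replicates 2 to 4. The 18 germline and oocyte markers summed to 6165 to 19193 CPM in replicate 1 and to 109 to 199 CPM in replicates 2 to 4, where at most 1 of them was at or under 3 counts. The 15 sperm markers summed to 53.7 to 158 CPM in replicate 1 and to 7.54 to 13.96 CPM in replicates 2 to 4, where 10 to 14 of them were at or under 3 counts. Libraries held 8237095 to 31234047 gene counts, and 3 counts correspond to 0.0895 to 0.335 CPM, a floor that covers counting error only.

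All 10 genes were well above this floor in every library. Levels between genes can be compared only per length, and the length at hand is the gene span in the RefSeq table, introns included. On that scale dpy-30, a short gene, averaged 161 CPM per kb of span over the 12 libraries. The condensin genes capg-1, dpy-27 and dpy-26 averaged 15.3, 14.5 and 12.8 CPM per kb, and mix-1 and dpy-28 averaged 6.21 and 5.93 CPM per kb. For dpy-21 the average was 10.6 CPM per kb. The sdc genes were lowest, with 4.40 CPM per kb for sdc-3, 2.21 for sdc-2 and 1.89 for sdc-1. The ranges of sdc-2 (0.646 to 3.12 CPM per kb) and sdc-1 (1.55 to 2.39 CPM per kb) overlapped, as did those of sdc-2 and sdc-3 (1.61 to 7.20 CPM per kb).

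Among the sdc genes, sdc-2, which starts the binding to X, had 24.2, 23.3, 21.9 and 22.9 CPM in 15eh1 replicates 1 to 4. The same gene had 19.1, 23.7, 31.9 and 6.94 CPM in YPT41 and 22.7, 33.6, 27.7 and 27.3 CPM in N2, in the order of replicates. 15eh1 libraries lay close together, YPT41 replicate 4 was the lowest of the 12 and N2 replicate 2 the highest, and all strains overlapped. The zinc finger gene sdc-3 had 65.3, 40.6, 46.9 and 33.1 CPM in 15eh1, 26.8, 44.5, 47.3 and 14.6 CPM in YPT41, and 30.3, 51.1, 42.4 and 35.1 CPM in N2. Its highest library was 15eh1 replicate 1 and its lowest YPT41 replicate 4. The zinc finger gene sdc-1 had 16.1, 10.7, 13.5 and 10.7 CPM in 15eh1, 11.4, 11.8, 15.6 and 11.8 CPM in YPT41, and 16.6, 12.1, 13.3 and 13.2 CPM in N2. This was the steadiest of the sdc genes over the 12 libraries, with 10.7 CPM at the lowest and 16.6 CPM at the highest.

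**Figure D1:**
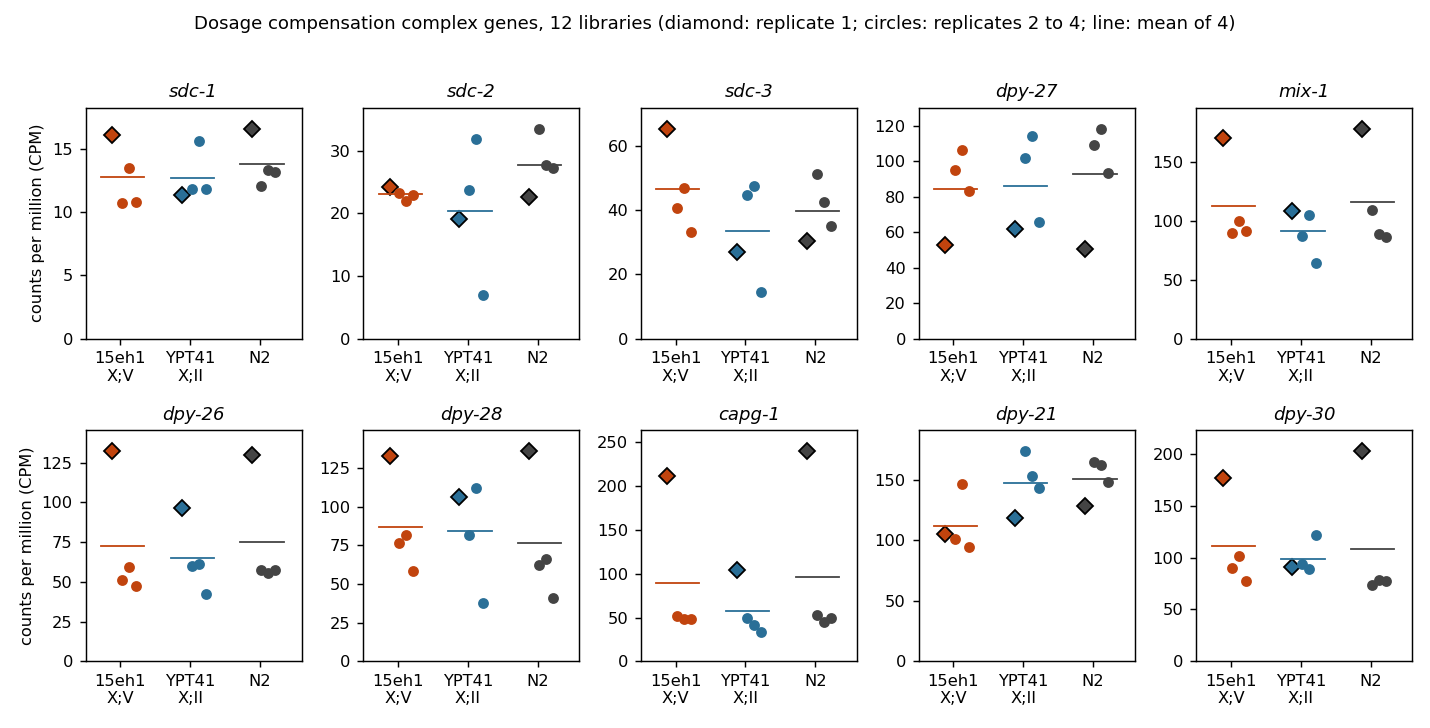
CPM (linear axis from 0) of the 10 genes in each of 12 libraries, with 15eh1 (X;V), YPT41 (X;II) and N2 from left to right; diamonds are replicate 1, circles replicates 2 to 4, and lines the mean of 4 libraries. The diamonds of capg-1 (104 to 239 CPM) and dpy-26 (96.7 to 132 CPM) lie above all circles, and those of dpy-27 (50.5 to 61.7 CPM) lie below all circles.

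Within the condensin ring, dpy-27, the SMC4-type subunit found only in the dosage compensation machine, had 52.8, 95.2, 106.6 and 83.1 CPM in 15eh1 replicates 1 to 4. It had 61.7, 102.0, 114.0 and 65.7 CPM in YPT41 and 50.5, 109.2, 118.4 and 93.4 CPM in N2. In each strain replicate 1 was the lowest library. The kleisin gene dpy-26, whose protein closes the ring, had 132, 51.4, 59.1 and 47.3 CPM in 15eh1, 96.7, 60.0, 61.2 and 42.5 CPM in YPT41, and 130, 57.3, 55.5 and 57.6 CPM in N2. The HEAT-repeat gene capg-1 had 211, 52.3, 48.7 and 47.8 CPM in 15eh1, 104, 49.3, 41.6 and 33.6 CPM in YPT41, and 239, 52.8, 44.4 and 49.7 CPM in N2. For dpy-26 and capg-1, in contrast to dpy-27, replicate 1 was the highest library of each strain.

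The other HEAT-repeat gene, dpy-28, had 133, 76.4, 81.7 and 58.3 CPM in 15eh1, 106.4, 81.9, 112 and 37.5 CPM in YPT41, and 136, 62.5, 66.2 and 41.2 CPM in N2. The SMC2 gene mix-1, shared by all 3 condensins of the worm, had 171, 89.8, 100.0 and 91.4 CPM in 15eh1, 109, 87.5, 105 and 64.4 CPM in YPT41, and 179, 110, 89.0 and 86.6 CPM in N2. For both genes YPT41 replicate 3 came close to or above YPT41 replicate 1, while in 15eh1 and N2 replicate 1 lay apart at the top.

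Of the accessory genes, dpy-21, which encodes the demethylase that leaves H4K20me1 on X, had 105, 101, 147 and 94.6 CPM in 15eh1 replicates 1 to 4. Its levels were 119, 174, 153 and 144 CPM in YPT41 and 128, 165, 162 and 148 CPM in N2. Of the 15eh1 libraries 3 lay below every library of YPT41 and N2, and 15eh1 replicate 3 lay among them. The small gene dpy-30, whose protein also serves the H3K4 methyltransferase complexes, had 176, 89.9, 101 and 77.6 CPM in 15eh1, 91.1, 93.4, 88.8 and 121 CPM in YPT41, and 202, 73.6, 78.5 and 77.8 CPM in N2. Replicate 1 was far above the other libraries in 15eh1 and N2, and in the midst of them in YPT41.

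The first comparison asked whether transcript levels of the genes of the complex differ in worms whose X is joined to an autosome, as in 15eh1 (X;V) and YPT41 (X;II). None of the 10 genes passed the test when 15eh1 or YPT41 was set against N2, or 15eh1 against YPT41 (edgeR quasi-likelihood test, Benjamini-Hochberg adjustment over 13186 genes, threshold 0.05). Of all tested genes, 0% were called for the first, 0.22% for the second (0.159% higher, 0.0607% lower) and 0.182% for the third (0.0607% higher, 0.121% lower). With the replicate number as a block, 0 members passed, beside 0.0683%, 5.2% and 1.83% of all genes. With replicates 2 to 4 only, 0 members passed, beside 0.015%, 1.01% and 0.556%. At an unadjusted p under 0.05 no member passed in any of the 3, against 206, 1163 and 760 of all genes, and DESeq2 called 0 members beside 10, 287 and 145 of all genes. For no member did the 4 libraries of one strain all lie beyond those of another, a pattern seen in 1.69%, 5.57% and 4.06% of tested genes. Both comparisons with N2 share the N2 libraries. The strain fit has no term for replicate 1, so that split is part of the spread behind its p-values and intervals. Its common coefficient of variation beyond counting error was 0.638, against 0.297 with the block and 0.313 with replicates 2 to 4 only.

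For 15eh1 against N2 the log2 fold changes of the members ran from -0.43 for dpy-21 to 0.23 for sdc-3, with a median of -0.08 beside 0.01 over all tested genes. Of the 10 genes 7 were below 0, where 49% of all genes were. In 15eh1 dpy-21 averaged 112 ± 23.6 CPM and in N2 151 ± 16.6 CPM (SD, n = 4 each). Its log2 fold change was -0.43 with an SE of 0.22 and a 95% interval from -0.91 to 0.05 (edgeR adjusted p = 1.00). It was lower in 15eh1 in 4 of 4 pairs of libraries with the same replicate number, as were 9.81% of all genes, and without replicate 1 the log2 fold change was -0.50 (edgeR adjusted p = 0.999). For sdc-2 the means were 23.1 ± 0.963 CPM in 15eh1 and 27.8 ± 4.46 CPM in N2, with a log2 fold change of -0.27 and a 95% interval from -1.08 to 0.54. For sdc-3, at 46.5 ± 13.8 CPM in 15eh1 and 39.7 ± 9.06 CPM in N2, the log2 fold change of 0.23 became -0.12 without replicate 1. The intervals of the condensin genes all spanned 0, from -0.86 to 0.59 for dpy-27 and from -1.59 to 1.38 for capg-1.

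For YPT41 against N2 the log2 fold changes ran from -0.76 for capg-1 to 0.14 for dpy-28, with a median of -0.17 beside 0.03 over all tested genes. Of the 10 genes 9 were below 0, where 47.7% of all genes were. Also below 0 were 4 of 4 condensin genes outside the complex, 10 of 10 cohesin genes and 7 of 8 from H3K4 methyltransferase complexes. So were 6 of 7 on H4K20 methylation and X chromatin, 3 of 3 of the SUMO pathway and 7 of 12 on sex determination. The lean was therefore not particular to the complex. capg-1 averaged 57.2 ± 31.9 CPM in YPT41 and 96.5 ± 95.2 CPM in N2 (SD, n = 4 each), a log2 fold change of -0.76 with a 95% interval from -2.25 to 0.74. It was lower in YPT41 in 4 of 4 pairs, as were 9.13% of all genes, and the log2 fold change was -0.34 without replicate 1 and -0.48 with the replicate number as a block (edgeR adjusted p = 0.402 and 0.193). Leaving out N2 replicate 1 alone gave 0.14. For sdc-2, at 20.4 ± 10.4 CPM in YPT41 and 27.8 ± 4.46 CPM in N2, the log2 fold change was -0.45 with a 95% interval from -1.26 to 0.37. For dpy-27 it was -0.11 (-0.84 to 0.61) and for dpy-21 -0.03 (-0.51 to 0.44).

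Set directly against each other, 15eh1 and YPT41 gave log2 fold changes from -0.40 for dpy-21 to 0.65 for capg-1, with a median of 0.16 over the 10 genes beside -0.02 over all genes. dpy-21 was lower in 15eh1 than in YPT41 in 4 of 4 pairs, as were 14.1% of all genes, with a 95% interval from -0.87 to 0.08. capg-1 was higher in 15eh1 in 4 of 4 pairs, as were 8.17% of all genes, with a 95% interval from -0.84 to 2.14. Without 15eh1 replicate 1 its log2 fold change was -0.20.

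**Figure D2:**
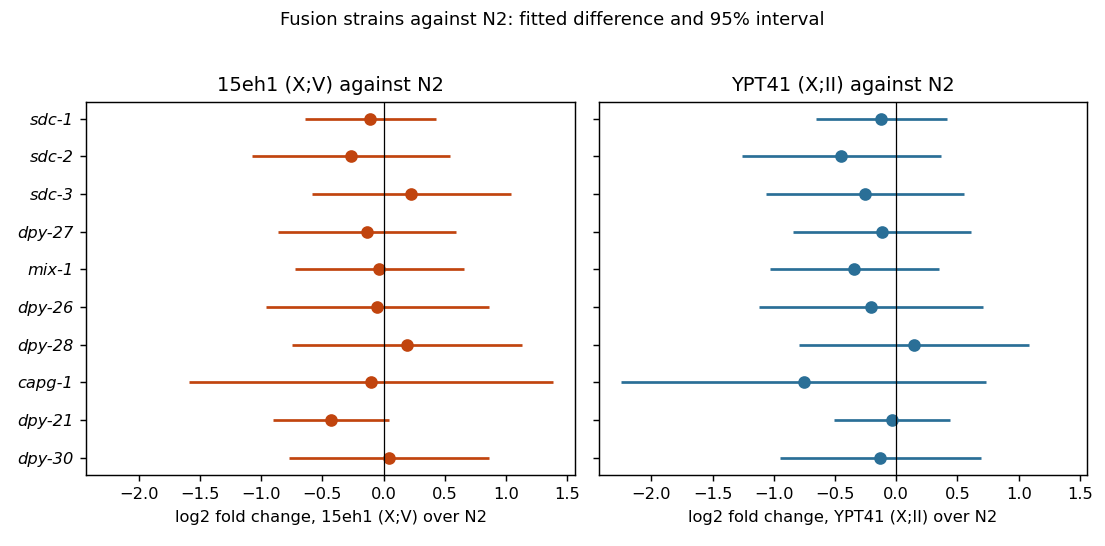
Fitted log2 fold changes of the 10 genes with 95% intervals, 15eh1 against N2 on the left and YPT41 against N2 on the right, from 4 libraries a strain. All 20 intervals include 0. The narrowest are those of dpy-21 and sdc-1, and the widest those of capg-1. The split of replicate 1 is part of the spread behind them.

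Of the 10 genes, dpy-21, sdc-3 and dpy-30 lie on chromosome V, mix-1 on chromosome II, sdc-1 and sdc-2 on X, dpy-27 and dpy-28 on III, dpy-26 on IV and capg-1 on I. Counted from the right end of V, dpy-21 is tested gene 278 of 2636. The 10 tested genes on each side of it had a median log2 fold change of -0.26 in 15eh1 against N2, with 18 of 20 below 0, beside -0.43 for dpy-21 itself. In YPT41 against N2 the same 20 neighbours had a median of -0.05, with 12 below 0. In runs of 50 tested genes from the right end of V, the median log2 fold change in 15eh1 against N2 was -0.55, -0.43, -0.46, -0.34, -0.10, -0.28 (the run with dpy-21), -0.11 and -0.03. The runs that followed were at 0.11 and -0.13, and those beyond lay between -0.10 and 0.21. Farther in, sdc-3 is tested gene 513, in a run with a median of 0.00, and dpy-30 is tested gene 977. mix-1 is tested gene 1561 of 2130 from the left end of II. Its 20 neighbours had a median of -0.06 in YPT41 against N2, with 10 below 0, beside -0.34 for mix-1.

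**Figure D3:**
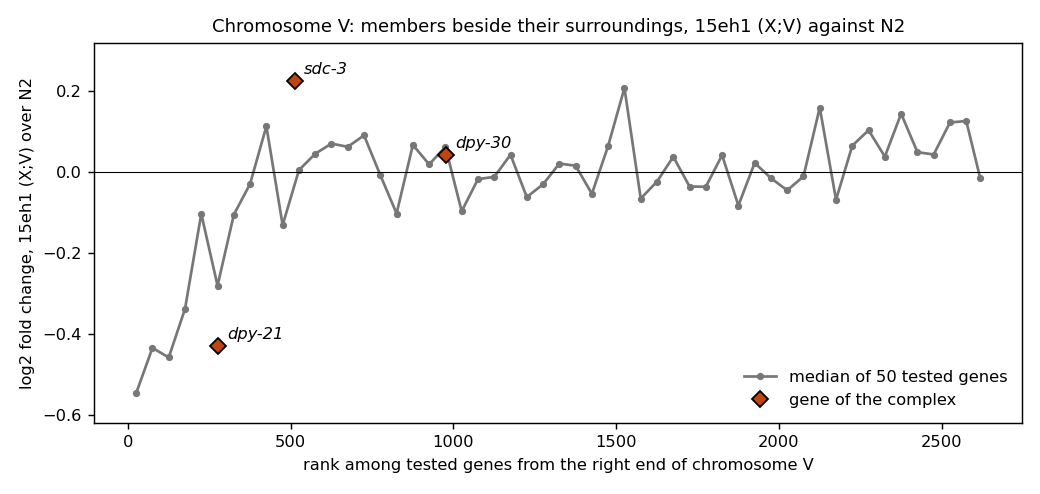
Median log2 fold change in 15eh1 against N2 for runs of 50 tested genes on chromosome V (grey line), by rank from the right end, with the 3 genes of the complex on that chromosome (diamonds). The first 8 medians, -0.55 to -0.03, are below 0, followed by 0.11 and -0.13, and those beyond lie between -0.10 and 0.21. dpy-21 at rank 278 stands at -0.43 beside a run at -0.28.

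The second comparison set replicate 1 against replicates 2 to 4 within strains. The genes of the complex did not move as 1 group. All 4 subunits shared with condensin I rose, as did dpy-30, which acts in loading and in the H3K4 methyltransferase complexes. dpy-27, the subunit that condensin I lacks, fell, and the 3 sdc genes and dpy-21 did not pass the test. That is 5 of 10 genes higher and 1 lower (edgeR quasi-likelihood test with Benjamini-Hochberg adjustment), where 31.1% of all tested genes were called higher and 31.8% lower, 62.9% in all. The median log2 fold change was 0.47 over the 10 genes and -0.16 over all tested genes. A call in either direction was therefore common among all genes in this comparison. The fit takes the 3 replicate 1 libraries as independent, but they deviated together from their strain means (correlations of 0.822 to 0.942). Its p-values may therefore be too small and its intervals too narrow, for the complex and for all other genes given below.

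capg-1 averaged 185 ± 71.2 CPM in replicate 1 (SD, n = 3) and 46.7 ± 6.02 CPM in replicates 2 to 4 (SD, n = 9), where it ran from 33.6 over a median of 48.7 to 52.8 CPM. Its log2 fold change was 1.93 ± 0.18 (SE), a 3.81-fold rise with an edgeR adjusted p of 9.14e-07. dpy-26 averaged 120 ± 19.8 CPM in replicate 1 and 54.7 ± 6.32 CPM in replicates 2 to 4, a log2 fold change of 1.12 ± 0.16 (edgeR adjusted p = 4.19e-05). For these 2 genes all 3 replicate 1 libraries lay above all 9 others, as they did for 25.4% of tested genes.

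dpy-28 rose by 0.89 ± 0.27 on the log2 scale, with 125 ± 16.2 CPM in replicate 1 and 68.6 ± 22.8 CPM in replicates 2 to 4 (edgeR adjusted p = 0.0117). mix-1 rose by 0.72 ± 0.18, with 153 ± 38.4 CPM in replicate 1 and 91.5 ± 13.1 CPM in replicates 2 to 4 (edgeR adjusted p = 0.00318). dpy-30 rose by 0.82 ± 0.23, with 157 ± 58.1 CPM in replicate 1 and 89.1 ± 15.1 CPM in replicates 2 to 4 (edgeR adjusted p = 0.00736). These 3 calls were less firm, since the ranges overlapped and each call was lost under at least 1 alternative. Without N2 replicate 1, dpy-28 had a log2 fold change of 0.69 (edgeR adjusted p = 0.111) and dpy-30 of 0.48 (0.110), and without 15eh1 replicate 1 dpy-30 had 0.73 (0.0595). With library size alone as the scaling, mix-1 was at 0.35 (edgeR adjusted p = 0.161) and dpy-28 at 0.50 (0.171), while dpy-21 passed downward at -0.61 (0.0195). That scaling called 3182 of all tested genes higher and 5268 lower, against 4102 and 4192 with TMM, and moved the median of all tested genes to -0.49, against -0.16. Relative to that median, mix-1 was at 0.84 with library size alone and 0.88 with TMM, dpy-28 at 0.99 and 1.05, and dpy-21 at -0.12 and -0.11. VM106R.1 and M106.8 overlap mix-1, and C25G4.3 overlaps dpy-26. Reads listed as ambiguous were left out, so reads shared between these genes may be missing from their counts. How shared reads were assigned cannot be told, since the strand setting of the counting is not given.

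dpy-27 averaged 55.0 ± 5.92 CPM in replicate 1 (SD, n = 3) and 98.6 ± 16.5 CPM in replicates 2 to 4 (SD, n = 9), with 65.7 CPM as the lowest, 102.0 as the median and 118 CPM as the highest of the 9. All 3 replicate 1 libraries lay below all 9 others, as they did for 19.1% of tested genes. The log2 fold change was -0.84 ± 0.20 (SE), with a 95% interval from -1.26 to -0.41 and an edgeR adjusted p of 0.00254. It passed the test under all 20 settings tried, as did dpy-26 and capg-1. Taken relative to the median of all tested genes, dpy-27 was at -0.68, both with TMM scaling and with library size alone, which moved that median to -0.49.

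The 3 sdc genes and dpy-21 did not pass the test in this comparison. sdc-2 averaged 22.01 ± 2.62 CPM in replicate 1 and 24.4 ± 7.70 CPM in replicates 2 to 4, a log2 fold change of -0.13 with a 95% interval from -0.81 to 0.56. sdc-3 averaged 40.8 ± 21.3 CPM in replicate 1 and 39.5 ± 10.99 CPM in replicates 2 to 4, a log2 fold change of -0.02 (-0.72 to 0.69). The values of sdc-1 were 14.7 ± 2.88 CPM in replicate 1 and 12.5 ± 1.55 CPM in replicates 2 to 4, a log2 fold change of 0.23 (-0.16 to 0.61). dpy-21 averaged 117 ± 11.6 CPM in replicate 1 and 143 ± 27.5 CPM in replicates 2 to 4, a log2 fold change of -0.27 (-0.64 to 0.10).

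**Figure D4:**
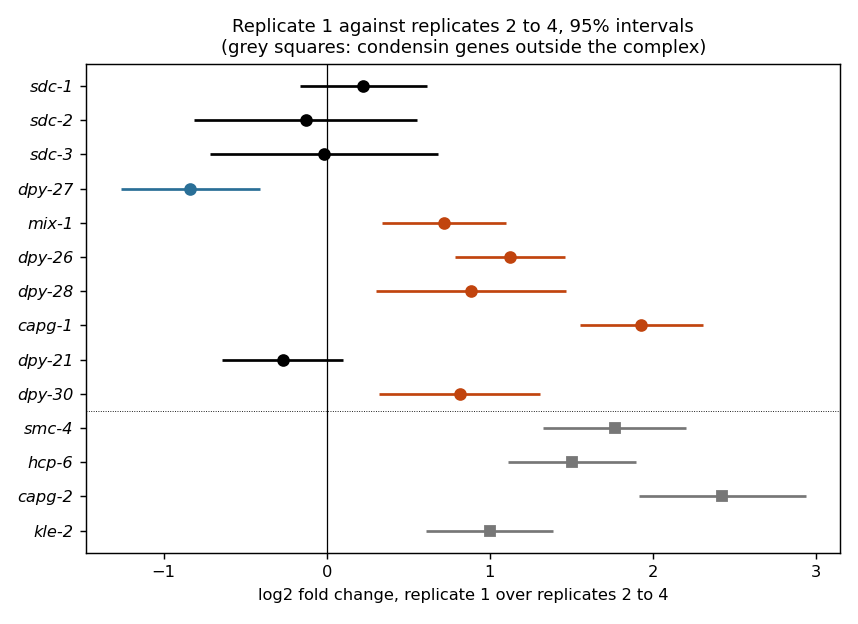
Fitted log2 fold change of replicate 1 over replicates 2 to 4 with 95% intervals, from 3 and 9 libraries; red circles passed the test upward, the blue circle (dpy-27) passed it downward, black circles did not pass, and grey squares are 4 condensin genes outside the complex, all of which passed upward. Values run from -0.84 for dpy-27 to 2.43 for capg-2.

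The mitotic counterpart of dpy-27 moved the other way. smc-4 averaged 225 ± 41.5 CPM in replicate 1 and 65.6 ± 14.1 CPM in replicates 2 to 4, a log2 fold change of 1.77 ± 0.20 (edgeR adjusted p = 7.83e-06). The ratio of dpy-27 to smc-4 counts was 0.210 in 15eh1 replicate 1, 0.349 in YPT41 replicate 1 and 0.206 in N2 replicate 1. In replicates 2 to 4 it was 1.36 to 1.44 in 15eh1, 1.49 to 1.93 in YPT41 and 1.31 to 1.68 in N2. Thus smc-4 had the larger count in every replicate 1 library and dpy-27 in every other library. A ratio within a library does not depend on how libraries are scaled.

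On the log2 scale the dpy-27 to smc-4 ratio averaged -2.02 ± 0.43 in replicate 1 and 0.61 ± 0.17 in replicates 2 to 4 (SD, n = 3 and 9), a difference of -2.62. The dpy-27 to mix-1 ratio averaged -1.44 ± 0.55 in replicate 1 and 0.10 ± 0.15 in replicates 2 to 4, a difference of -1.54. The smc-4 to mix-1 ratio averaged 0.58 ± 0.12 in replicate 1 and -0.50 ± 0.18 in replicates 2 to 4, a difference of 1.08. Each difference had the same sign in 3 of 3 strains. Each reached p = 0.0156 in an exact two-sided permutation test within strains, the smallest p this test can give. After adjustment over the 9 permutation tests it was 0.0469. The test permutes each strain separately and so takes the 3 replicate 1 libraries as independent. These libraries deviated together from their strain means, with correlations of 0.822 to 0.942, so the p-values may be too small. The ratios also share genes and are not independent of each other. They were chosen with earlier results of these data known. For single genes, the replicate 1 libraries lay above all others for 25.4% of tested genes and below all others for 19.1%. How often other pairs of genes reach the same p was not tested. Between the fusion strains and N2 the same ratios differed by -0.09 to 0.27 on the log2 scale, with exact permutation p of 0.6 to 0.971, where 4 against 4 libraries allow 0.0286 at best.

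**Figure D5:**
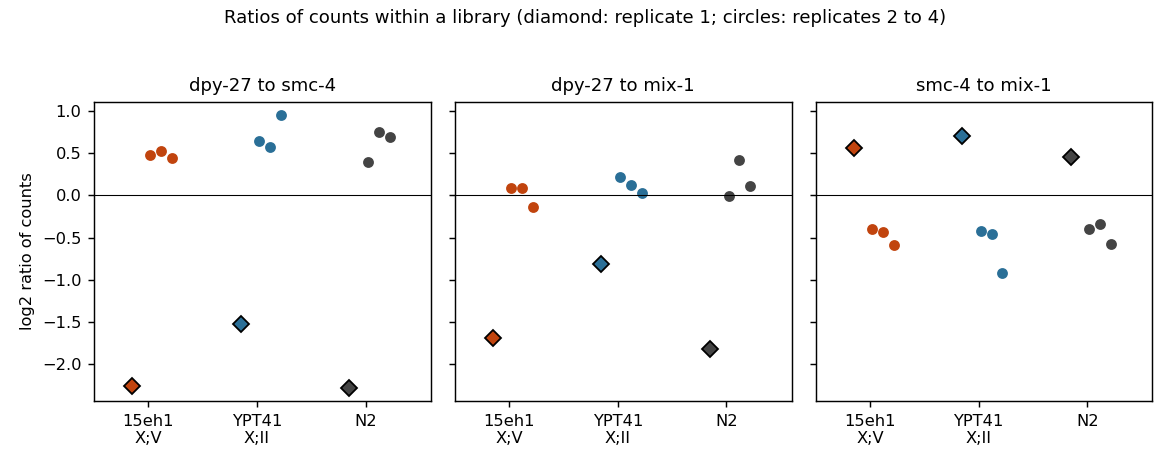
Log2 ratios of counts within each of 12 libraries, with 15eh1 (X;V), YPT41 (X;II) and N2 from left to right; diamonds are replicate 1 and circles replicates 2 to 4. For dpy-27 to smc-4 the diamonds lie at -2.28 to -1.52 and the circles at 0.39 to 0.95, and for smc-4 to mix-1 the order is turned, with diamonds at 0.46 to 0.71 and circles at -0.92 to -0.34.

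These differences moved together with the germline and yolk markers. All 6 vitellogenins and all 17 tested germline and oocyte markers of 18 were higher in replicate 1. So were 2 of 2 tested sperm markers of 15, gsp-4 and spe-15. Of 4 tested early embryo markers of 15, 3 were higher, pes-1, pal-1 and skn-1. Over all tested genes, 31.1% were called higher and 31.8% lower. With library size alone as the scaling, spe-15 of these lists no longer passed (edgeR adjusted p = 0.214). The early embryo marker elt-7 then passed downward (edgeR adjusted p = 0.0218). Early embryo markers summed to 360 to 1007 CPM in replicate 1 and 257 to 370 CPM in replicates 2 to 4, with 6 to 7 of 15 genes at or under 3 counts in replicate 1 and 8 to 11 in replicates 2 to 4. Of the markers of somatic tissues, 4 of 5 for muscle, 6 of 7 tested for neurons, 6 of 9 for epidermis and molting and 2 of 6 for intestine were lower in replicate 1, and 2 of 9 for epidermis and molting were higher. The part of these tissues in the values of the complex was not tested. In RNA from whole worms, fewer cells of a type and less RNA per cell cannot be told apart.

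YPT41 replicate 1 had the smallest summed vitellogenin and germline markers of the 3 replicate 1 libraries, 67454 and 6165 CPM. The log2 difference of replicate 1 from the mean of replicates 2 to 4 was 2.09 in 15eh1, 1.34 in YPT41 and 2.29 in N2 for capg-1. It was -0.84 in 15eh1, -0.56 in YPT41 and -1.07 in N2 for dpy-27, and 0.98 in 15eh1, -0.14 in YPT41 and 1.399 in N2 for dpy-30. Each strain has 1 replicate 1 library, so a comparison of these differences between strains sets single libraries against each other. Its p-values and intervals take their spread from replicates 2 to 4 and assume that a replicate 1 library varies like them. Under that assumption no member and no gene passed with edgeR (0% of 13186 genes in each of the 3 comparisons). At an unadjusted p under 0.05 there were 202 genes for 15eh1 against N2, 2019 for YPT41 against N2 and 1340 for 15eh1 against YPT41. The largest of the members was dpy-30 in YPT41 against N2, at -1.55 with a 95% interval from -2.39 to -0.71 (edgeR adjusted p = 0.108), and DESeq2 called it at -1.60 (adjusted p = 0.00341), as 1 of 645 genes. It rests on 91.1 CPM in YPT41 replicate 1 and 202 CPM in N2 replicate 1. For capg-1 in YPT41 against N2 the difference was -0.96 (-1.78 to -0.14, edgeR adjusted p = 0.252). For dpy-27 it was 0.48 (-0.53 to 1.49).

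A single library outside replicate 1 also stood apart, for the complex and for some other lists. YPT41 replicate 4 was the lowest of the 12 libraries for 6 of the 10 genes, sdc-2, sdc-3, mix-1, dpy-26, dpy-28 and capg-1, where it was the lowest for 16.3% of all tested genes. For dpy-30, by contrast, it was the highest of the YPT41 libraries. Together the 10 genes summed to 542 CPM there and to 567 to 1134 CPM in the other 11 libraries, a small gap to the next lowest, 15eh1 replicate 4. As a share of gene counts, before TMM scaling (factor 0.778 in YPT41 replicate 4), they took 0.0421% there and 0.0648% to 0.0856% in the others. The same library was the lowest for the summed condensin genes outside the complex, with 86.1 CPM against 144 to 572 CPM in the other 11. It was also the lowest for cohesin genes, with 182.9 CPM against 241 to 1042 CPM, and for the H3K4 methyltransferase complexes, with 286 CPM against 356 to 874 CPM. In CPM it was not the lowest for the SUMO pathway (394 CPM) or for H4K20 methylation and X chromatin (319 CPM). Nor was it for sex determination (434 CPM). As a share of gene counts, however, it was the lowest of the 12 for these lists too. They took 0.0306%, 0.0248% and 0.0337% there, against at least 0.0339%, 0.0270% and 0.0470% in the other 11. The 6 markers of the intestine, none of them at or under 3 counts, summed to 24527 CPM in YPT41 replicate 4 and to 8043 to 13676 CPM in the other 11 libraries. Neuron markers summed to 3824 CPM there and to 1180 to 2955 CPM in the other 11. Muscle markers, at 15473 CPM, lay within the range of the other libraries. Epidermis and molting markers, at 1814 CPM, were the lowest outside replicate 1. The part of these tissues in the values was not tested. Without this library the log2 fold change in YPT41 against N2 was -0.24 for sdc-2 and -0.09 for sdc-3, against -0.45 and -0.26 with it.

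Genes that work beside the complex were read from lists chosen by function. No gene of these lists passed the test in any of the 3 comparisons between strains. In replicate 1 against replicates 2 to 4, all 4 condensin genes outside the complex rose. For this list and those below, the share of all tested genes called higher was 31.1%. They were smc-4, given above, and the condensin II genes hcp-6 with a log2 fold change of 1.51, capg-2 with 2.43 and kle-2 with 1.00. capg-2, the condensin II counterpart of capg-1, averaged 97.4 ± 35.2 CPM in replicate 1 and 17.5 ± 4.78 CPM in replicates 2 to 4. All 10 tested cohesin genes of 12 listed rose, led by the meiotic kleisins rec-8 at 4.51, coh-3 at 4.21 and coh-4 at 4.14, while the release factor wapl-1 was at 1.49.

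Of the H3K4 methyltransferase complexes that share DPY-30, 6 of 8 genes rose, with the catalytic subunit gene set-2 at 1.85. The core genes rbbp-5 and ash-2 were at 1.43 and 0.79, and wdr-5.1, cfp-1 and pis-1 at 1.19, 1.56 and 1.31. dpy-30 itself was at 0.82, with a difference of -0.14 in YPT41 taken alone. The other catalytic subunit gene, set-16, was at -0.10 (-0.56 to 0.36), and the demethylase gene utx-1 at 0.55 (edgeR adjusted p = 0.0508). All 7 genes of the list on H4K20 methylation and X chromatin rose. The H4K20 monomethylase gene set-1 averaged 152 ± 48.2 CPM in replicate 1 and 36.6 ± 7.73 CPM in replicates 2 to 4, a log2 fold change of 2.04, and set-4, whose product adds further methyl groups to H4K20, was at 1.205. dpy-21, whose product takes a methyl group off H4K20me2, was at -0.27, as given above. All 3 genes of the SUMO pathway, which modifies several subunits of the complex, rose, with smo-1 at 1.17, ubc-9 at 1.78 and gei-17 at 1.26. With library size alone as the scaling, evl-14, ash-2, sir-2.1, cec-4 and set-25 of these lists no longer passed, nor did tra-3 and fem-1 of the list that follows.

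A further list held the X signal elements and xol-1, which act upstream of sdc-2, together with sex-determining genes such as her-1, tra-1 and fem-3, which act downstream of it. Of the 15 listed, 12 were tested and 9 rose in replicate 1. The X signal element sex-1 was at 2.39, with 39.2 ± 16.3 CPM in replicate 1 and 7.55 ± 1.90 CPM in replicates 2 to 4. The X signal element fox-1 was at 0.03 (-0.32 to 0.38), and the sex-determining gene fem-3 at 4.39. The switch gene xol-1, which keeps sdc-2 off in males, failed the filter, with 32 counts over the 3 replicate 1 libraries (0.721 to 1.46 CPM) and 6 counts over the other 9 (0 to 0.112 CPM). The male-promoting gene her-1 also failed it, with 0.811 to 1.88 CPM in replicate 1 and 0.130 to 0.750 CPM in replicates 2 to 4.

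Between members, the likeness of pattern was measured as the root mean square difference of log2 CPM, centred on each gene's mean, over the 12 libraries, which share depth and the replicate 1 split. The closest pairs were mix-1 and dpy-26 at 0.22, sdc-1 and mix-1 at 0.29 and sdc-2 and sdc-3 at 0.31. The farthest pair was dpy-27 and capg-1 at 1.24, whose proteins sit in the same condensin. Outside the complex the 3 tested genes most like sdc-2 were baz-2 at 0.17, nmgp-1 at 0.17 and K07H8.12 at 0.20, beside a median of 0.87 over all tested genes. Those most like dpy-27 were mrp-1 at 0.12, the spectrin gene spc-1 at 0.12 and the neuronal gene unc-13 at 0.13 (median 0.71). For dpy-21 they were pars-1 at 0.16, daf-1 at 0.19 and prp-6 at 0.19 (median 0.69), of which prp-6 also lies on chromosome V.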

How the data were processed

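The values analysed were whole read counts per gene that the authors deposited, with 1 table for each of the 12 RNA libraries. That they are counts was seen from the values. The submitters' processing notes name TopHat2 2.1.1, HTSeq, SAMtools 1.6, Bowtie 1.2.0, bedtools, MACS 1.4.3 and CASAVA 1.8 for the series, without role or order. Protocol text attached to the RNA libraries describes chromatin from embryos. RNA extraction, library preparation, genome build, annotation and strand setting were not given in the sources used here. How reads of overlapping or antisense genes were assigned can therefore not be told. Lines that name no gene stayed out of library sizes and tests. They held 2.48% to 4.25% of reads (no feature), 0.656% to 0.893% (ambiguous) and 13.2% to 22.7% (no unique position).

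From these counts, edgeR 4.0.16 with limma 3.58.1 in R 4.3.3 gave TMM factors, the filterByExpr filter by strain (13186 of 20389 identifiers kept) and two-sided quasi-likelihood tests, with Benjamini-Hochberg adjustment over all tested genes and a threshold of 0.05. Strains were compared in 1 fit of 12 libraries with strain as the only term. Replicate 1 was set against the others with strain as a further term, and the difference of that effect between strains was an interaction. Standard errors and 95% intervals were derived from the F statistics. Log2 CPM used a prior count of 2, and ratios had 0.5 added to each count. The strain fit and the replicate 1 fit were tested on simulated counts. For the strain fit these had a smaller spread than the data, no split of replicate 1 and larger changes than the members showed between strains. That check therefore says nothing on the power of the strain tests here. Permutation tests ran in Python 3.11.15. Alternatives were DESeq2 1.42.0, RLE factors, library size alone, other filters, each library left out, YPT41 (X;II) replicates 3 and 4 left out, replicates 2 to 4 only, the replicate number as a block, only the 2 strains compared, and no strain term.

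No pair of libraries within a strain held the same values. Symbols, spans, chromosomes and gene order come from a RefSeq table for WBcel235, which matched 19879 identifiers, and its coordinates are not printed. All 10 members are named in every comparison. Of the other lists, genes past the threshold could be named; smc-4, set-1, set-4, sex-1, xol-1, her-1 and smo-1 are given whatever their values, as are the 3 genes most like sdc-2, dpy-27 and dpy-21. set-16, utx-1 and fox-1 were added after their values were seen. Of 131 listed partner and marker genes 3 were not matched. The members, lists and tests were chosen with earlier results of these data known.

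Libraries with the same replicate number deviated together from their strain means, with correlations of 0.319 to 0.942 in all 12 pairs, and so were treated as paired in the fits with a block. The pairing comes from the numbers in the titles. Without replicate 1, 4 of 9 correlations were above 0.1 (-0.12 to 0.44).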

Additional observations from a re-analysis of the deposited data

Results flagged for a closer look

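Within a strain, 4 libraries are compared, and a value is listed here when its gap to the nearest other library takes most of the range of the 4 (Dixon's 95% criterion). Of 39 groups tested 13 values met it, and 11 of the 13 belong to replicate 1 libraries. Chance gives about 1 in 20 for a single group. The groups share libraries and genes, and replicate 1 was known to stand apart, so their number is not a test. For single genes in replicate 1, these are mix-1 with 171 CPM in 15eh1, dpy-26 with 132 CPM in 15eh1 and 130 CPM in N2, capg-1 with 211 CPM in 15eh1 and 239 CPM in N2, and dpy-30 with 202 CPM in N2. Outside replicate 1, sdc-1 had 15.6 CPM in YPT41 replicate 3 and dpy-30 had 121 CPM in YPT41 replicate 4, each far above the other YPT41 libraries. The log2 ratio of dpy-27 to smc-4 stood apart in replicate 1 of all 3 strains, at -2.25 in 15eh1, -1.52 in YPT41 and -2.28 in N2. In 15eh1 replicate 1 the log2 ratio of dpy-27 to mix-1 was -1.69 and that of smc-4 to mix-1 was 0.56.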

How the results depend on the processing

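No member passed the test between strains under any alternative tried, and dpy-26, capg-1 and dpy-27 passed it in replicate 1 against the others under all of them. The number of members called in replicate 1 was 4 to 6 of 10 with each library left out, beside 6697 to 9693 of all tested genes, and 5 with library size alone, beside 8450. Many fold changes between strains lie near 0 and turned sign. The cause was not tested.

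With the replicate number as a block, no call of a member changed, and the log2 fold change was 0.0405 for dpy-30 in YPT41 against N2 and -0.0065 for sdc-1 in 15eh1 against YPT41. With replicates 2 to 4 only, without and with the replicate block, the values were -0.12 and -0.11 for sdc-3 in 15eh1 against N2, and 0.288 and 0.289 for dpy-30 in YPT41 against N2. In 15eh1 against YPT41 they were -0.083 and -0.082 for sdc-1, 0.0899 and 0.123 for dpy-27, and -0.090 and -0.090 for dpy-30, and dpy-28 was at -0.0278 without the block. In the same libraries the log2 ratio of dpy-27 to mix-1 was -0.0492 in YPT41 against N2 and that of smc-4 to mix-1 was -0.0341 in 15eh1 against N2.

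With RLE factors and with DESeq2, dpy-30 in 15eh1 against N2 was at -0.00315 and -0.00302, dpy-27 in 15eh1 against YPT41 at 0.0257 and 0.0262, and sdc-3 in replicate 1 at 0.0101 and 0.00862. With library size alone, dpy-27 was at 0.00993 and dpy-28 at -0.0377 in 15eh1 against YPT41, and sdc-1 at -0.14 in replicate 1. dpy-27 in 15eh1 against YPT41 was at 0.049 with no filter and 0.0369 with only those strains fitted. With YPT41 replicates 3 and 4 left out, the same comparison gave 0.0789 for dpy-27, -0.0892 for dpy-26 and -0.0829 for dpy-28. Without the strain term, sdc-3 in replicate 1 was at 0.0457. DESeq2 called 1 member, dpy-30, where the replicate 1 effect in YPT41 was set against N2.

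With each library left out in turn, log2 fold changes in 15eh1 against N2 ran from -0.37 to 0.0341 for dpy-27, -0.30 to 0.22 for mix-1, -0.51 to 0.32 for dpy-26, -0.0811 to 0.59 for dpy-28, -0.96 to 0.84 for capg-1 and -0.27 to 0.50 for dpy-30. The 2 ends of these ranges came without 15eh1 replicate 1 and without N2 replicate 1. In YPT41 against N2 they ran from -0.41 to 0.0189 for dpy-27, -0.54 to 0.11 for dpy-26, -0.13 to 0.49 for dpy-28, -1.29 to 0.14 for capg-1, -0.24 to 0.0026 for dpy-21 and -0.34 to 0.27 for dpy-30. In 15eh1 against YPT41 they ran from -0.11 to 0.15 for sdc-1, -0.0515 to 0.52 for sdc-2, -0.0868 to 0.17 for dpy-27, -0.30 to 0.46 for dpy-26, -0.22 to 0.25 for dpy-28, -0.20 to 1.16 for capg-1 and -0.13 to 0.33 for dpy-30. In replicate 1 against the others sdc-3 ran from -0.45 to 0.21.

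For the log2 ratios, replicate 1 differed by -2.81 to -2.49 for dpy-27 to smc-4, by -1.85 to -1.32 for dpy-27 to mix-1 and by 0.97 to 1.17 for smc-4 to mix-1. Leaving out a replicate 1 library raises the smallest p that permutations can give to 0.0625. In 15eh1 against N2 these ratios ran from -0.81 to 0.60, -0.58 to 0.34 and -0.26 to 0.22, and in YPT41 against N2 from -0.45 to 0.83, -0.28 to 0.46 and -0.38 to 0.17.

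Counts over all genes moved more. For 15eh1 against N2 they were 0 as reported, 10 with DESeq2, 9 with the block, 2 and 1 with replicates 2 to 4 without and with the block, and 0 to 1 with a library left out. For YPT41 against N2 they were 29 as reported, 287 with DESeq2, 686 with the block, 134 and 160 with replicates 2 to 4, 16 with no filter, 2 without YPT41 replicates 3 and 4, 6 with only those strains, and 4 to 35 with a library left out. Library size alone gave 12 higher and 8 lower there, against 21 and 8. For 15eh1 against YPT41 they were 24 as reported, 145, 241, 74 and 69, 1 without YPT41 replicates 3 and 4, 8 with only those strains, and 3 to 37. For the difference of the replicate 1 effect between strains they were 0 as reported, 645 with DESeq2 in YPT41 against N2 and 159 in 15eh1 against YPT41, and 0 to 203 with a library left out.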
